A study of Mus musculus with 12 samples.

Results

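The muscle glycolysis and energy enzymes described here are 10 genes, Eno3, Pygm, Pfkm, Pgam2, Ckm, Ckmt2, Phkg1, Ampd1, Fbp2 and Mb, chosen by name from the gene names in the array files. Each gene has 1 probe, so they are 10 of 41174 probes and 10 of 27373 gene names. The RNA came from whole back skin of male C57BL/6J mice, 8 weeks old when purchased, whose shaved backs were treated daily with 200 µL of either VC, 10% N-CE or 3% MXD for 1 week (1W), 2 weeks (2W) or 3 weeks (3W). MXD is minoxidil, the positive control of the study, N-CE is a cell extract of the cactus Notocactus ottonis, and VC is the vehicle of propylene glycol, ethanol and water. For each group the RNA of 6 mice was combined. Every MXD or N-CE pool was put with its VC pool on 2 Agilent arrays, once treated in Cy5 and once in Cy3, so that 12 arrays carry 6 comparisons.

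With 1 pool per group, the SD over a pair of arrays is a measurement error that leaves out the spread between mice, and no test between groups is possible within a week. All 4 arrays of a week lie on 1 slide and use 1 VC pool. Slide and week therefore cannot be told apart, and the MXD and N-CE comparisons of a week are not independent. Of the transcript spots on an array, 57.0% to 65.0% were well above background in Cy3 and 61.3% to 69.6% in Cy5. All 10 probes were well above background in both groups on all 12 arrays, and saturated spots numbered 0. The number of arrays limits the precision.

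Striated muscle contracts on ATP that several enzyme systems replace. Phosphorylase kinase switches on glycogen phosphorylase, which frees glucose units from stored glycogen, and glycolysis then turns them into pyruvate and ATP. Creatine kinase moves high-energy phosphate between the mitochondria and the myofibrils, AMP deaminase removes the AMP that builds up in hard work, and myoglobin binds oxygen. Many of these steps have a muscle isoform and 1 or more isoforms used in other tissues. Mouse back skin holds a sheet of striated muscle, the panniculus carnosus, under the dermis and fat, and whole-skin RNA contains its transcripts. In such bulk RNA, fewer muscle cells and less RNA per muscle cell cannot be told apart.

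The muscle in these samples was checked with marker genes. Of 15 fast and general skeletal muscle markers, such as Acta1 and Myh4, 14 were well above background in both groups of all comparisons, and the other, Tnni2, lacked a value in 2 comparisons because its spots carried the outlier mark. Detection of the 8 slow muscle markers was mixed. Myl3, Tnnt1, Myoz2 and Atp2a2 were well above background in 24 of 24 channels and Tnni1 in 22, but Tnnc1 in 11, the slow light chain Myl2 in 6 and the slow myosin Myh7 in 5. Of 4 cardiac markers, Nppb and Tnni3 were well above background in 24 of 24 channels, Nppa in 5 and the cardiac myosin Myh6 in 0. Of 4 brown adipocyte markers, Cidea, Ppara and Elovl3 were so in 24 of 24 channels and Ucp1 in 3.

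The probes decide which transcript region was read. In 5 of the 10 genes the 60-base probe matches a stretch of the mm9 genome longer than the probe, which places it across at least 1 intron and on spliced RNA. These 5 are shown because they report the spliced transcript of the muscle isoform. They lie at chr19:6397893-6398064 on the plus strand (Pygm), chr11:5701822-5703040 on the minus strand (Pgam2), chr7:20002222-20004829 on the plus strand (Ckm), chr13:91993242-91995390 on the minus strand (Ckmt2) and chr13:62950852-62955367 on the minus strand (Fbp2).
Pygm: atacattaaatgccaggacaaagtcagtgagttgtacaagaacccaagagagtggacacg
Pgam2: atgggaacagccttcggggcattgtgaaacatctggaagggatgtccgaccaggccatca
Ckm: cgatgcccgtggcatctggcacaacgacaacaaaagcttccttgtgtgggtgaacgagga
Ckmt2: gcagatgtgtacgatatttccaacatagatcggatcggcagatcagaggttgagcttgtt
Fbp2: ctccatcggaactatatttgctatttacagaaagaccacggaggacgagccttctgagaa

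In MXD-treated skin, all 10 enzymes were below VC at 1W, 2W and 3W, with the lowest value at 2W in 10 of 10. At 2W their mean log2 folds over VC ran from -1.62 for Eno3, the muscle enolase, to -0.88 for Ampd1, the muscle AMP deaminase, which is 32.6% to 54.3% of the VC level. The median of the 10 in the order of weeks was -0.84, -1.43 and -0.41 on the log2 scale, beside medians of -0.0040, 0.053 and 0.0037 over the probes that were well above background in both groups. A call required that the scanner software's P for the spot was under 0.01 on each array, that the arrays had the same sign, and that the mean fold exceeded 1.5 or fell short of 0.75. By this rule 9 of 10 enzymes were called lower at MXD 1W, where 0.765% of all probes were called lower, and 10 of 10 at MXD 2W, where 5.82% were. At MXD 3W 0 of 10 were called lower beside 0.161% of all probes. Called higher were 0 of 10 in each MXD week, beside 0.685%, 4.04% and 0.144% of all probes. The enzyme not called at 1W was Mb, myoglobin. Both arrays were below 0 in 10 of 10 enzymes in each of the 3 weeks, as they were in 34.2%, 32.2% and 27.1% of the probes well above background. Without the P criterion, 5 of 10 passed the fold at MXD 3W, namely Eno3, Pfkm, Ckm, Ckmt2 and Mb, beside 4.78% of all probes.

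**Figure D1:**
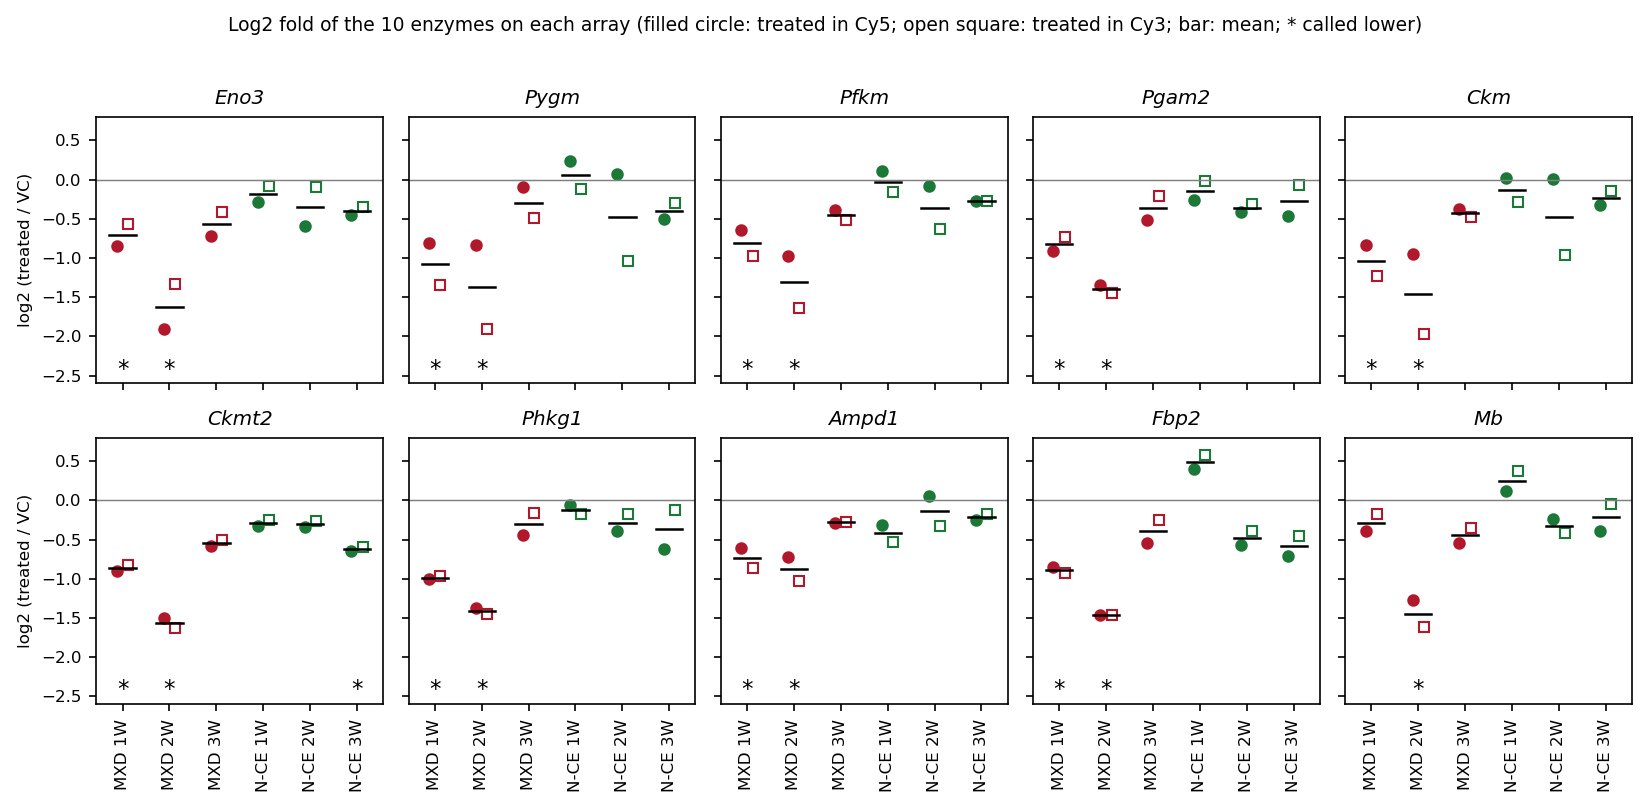
Log2 fold of treated over VC for each of the 10 enzymes in the 6 comparisons, with the array that has the treated pool in Cy5 as a filled circle, the array that has it in Cy3 as an open square, the mean as a bar and a star where the enzyme was called lower. The MXD 2W bars sit between -1.62 and -0.88, the lowest of the 6 comparisons in every panel, and the N-CE 1W bar lies highest in Fbp2 at 0.49.

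The first step, the release of glucose from glycogen, is represented by Phkg1 and Pygm. Phkg1 encodes the catalytic subunit of muscle phosphorylase kinase, and its log2 folds on the 2 arrays were -0.999 and -0.97 at MXD 1W, -1.38 and -1.44 at 2W, then -0.44 and -0.15 at 3W. With N-CE they were -0.06 and -0.17 at 1W, -0.39 and -0.18 at 2W, then -0.61 and -0.13 at 3W. The arrays lay close together at MXD 1W and 2W and below every N-CE array. The size of the Phkg1 fall depended on the background correction, and with normexp (offset 50) and then loess its means were -0.58 at MXD 1W and -0.85 at MXD 2W in place of -0.98 and -1.41. Its probe was dim. Scaled between arrays, its pool signals ran from 111 at MXD 2W to 201 at VC 2W with the offset of 50 included. Pygm encodes muscle glycogen phosphorylase, the enzyme that Phkg1 activates. Its log2 folds were -0.81 and -1.34 at MXD 1W, -0.83 and -1.91 at 2W, then -0.10 and -0.49 at 3W. The N-CE arrays gave 0.24 and -0.13 at 1W, 0.07 and -1.04 at 2W, then -0.50 and -0.30 at 3W. Pygm fell with MXD at 1W and 2W, but its arrays differed by up to 1.11 on the log2 scale, and at N-CE 2W only the array with the treated pool in Cy3 was below 0.

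Glycolysis proper is represented by Pfkm, Pgam2 and Eno3. Pfkm, the muscle phosphofructokinase that commits sugar to glycolysis, had log2 folds of -0.64 and -0.98 at MXD 1W, -0.97 and -1.64 at 2W, then -0.39 and -0.52 at 3W. With N-CE its values were 0.11 and -0.16 at 1W, -0.08 and -0.63 at 2W, then -0.28 and -0.27 at 3W. All MXD arrays were below 0, and the N-CE arrays lay on both sides of 0 at 1W. Pgam2, the muscle phosphoglycerate mutase, had log2 folds of -0.92 and -0.73 at MXD 1W, -1.35 and -1.45 at 2W, then -0.52 and -0.21 at 3W. Under N-CE the values were -0.26 and -0.02 at 1W, -0.41 and -0.31 at 2W, then -0.46 and -0.07 at 3W. Every array of Pgam2 was below 0, and its mean at MXD 2W was -1.40 ± 0.07 (SD, n = 2 arrays), or 38.0% of VC. Eno3, the muscle-specific enolase, had log2 folds of -0.85 and -0.57 at MXD 1W, -1.91 and -1.33 at 2W, then -0.72 and -0.41 at 3W. Its N-CE values were -0.28 and -0.08 at 1W, -0.59 and -0.10 at 2W, then -0.45 and -0.35 at 3W. Eno3 had the lowest mean of the 10 enzymes at MXD 2W and at MXD 3W, where it was 67.6% of VC.

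Fbp2 encodes the muscle fructose-bisphosphatase, which runs opposite to phosphofructokinase and serves the making of glycogen from lactate. Its log2 folds were -0.85 and -0.92 at MXD 1W, -1.46 and -1.46 at 2W, then -0.54 and -0.25 at 3W. The pairs with N-CE were 0.40 and 0.58 at 1W, -0.57 and -0.39 at 2W, then -0.70 and -0.46 at 3W. Fbp2 thus lay above VC on both arrays at N-CE 1W, at 141% of the VC level, and below it on both arrays in the other 5 comparisons. It was not called at N-CE 1W, where its mean of 0.49 ± 0.12 (SD, n = 2 arrays) falls short of the upper limit of 0.58. The scanner software's P for the spot also missed the limit on the array with the treated pool in Cy5, at 0.053. As in Phkg1, the size of the Fbp2 values depended on the background correction. With normexp and loess its means were -0.66 at MXD 1W, -1.15 at MXD 2W and 0.38 at N-CE 1W. Its pool signals, scaled as for Phkg1, ran from 200 at MXD 2W to 561 at N-CE 1W.

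The phosphocreatine system is represented by Ckm and Ckmt2. Ckm, the cytosolic muscle creatine kinase, had log2 folds of -0.84 and -1.23 at MXD 1W, -0.95 and -1.97 at 2W, then -0.37 and -0.48 at 3W. With N-CE they were 0.02 and -0.29 at 1W, 0.01 and -0.97 at 2W, then -0.32 and -0.14 at 3W. As in Pygm, the arrays of Ckm were far apart at 2W in both treatments, and the N-CE value at 2W rests on the array with the treated pool in Cy3. Ckmt2, the sarcomeric mitochondrial creatine kinase, had log2 folds of -0.89 and -0.83 at MXD 1W, -1.503 and -1.63 at 2W, then -0.59 and -0.51 at 3W. The N-CE arrays gave -0.32 and -0.24 at 1W, -0.33 and -0.27 at 2W, then -0.64 and -0.60 at 3W. The arrays of Ckmt2 differed by at most 0.12 in absolute size in any comparison. It was the 1 enzyme called lower with N-CE, at 3W, where its mean was -0.62 ± 0.03 (SD, n = 2 arrays), or 65.1% of VC.

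Ampd1 and Mb, together with Fbp2, lay farthest from the median profile of the 10 enzymes. Ampd1, the muscle AMP deaminase, had log2 folds of -0.61 and -0.87 at MXD 1W, -0.73 and -1.03 at 2W, then -0.29 and -0.27 at 3W. Under N-CE the values were -0.31 and -0.53 at 1W, 0.05 and -0.33 at 2W, then -0.25 and -0.17 at 3W. Ampd1 had the smallest fall of the 10 at MXD 2W and the lowest mean of the 10 at N-CE 1W, -0.42 ± 0.15 (SD, n = 2 arrays). Mb, the oxygen-binding protein of muscle, had log2 folds of -0.39 and -0.18 at MXD 1W, -1.28 and -1.61 at 2W, then -0.54 and -0.35 at 3W. Its N-CE values were 0.12 and 0.38 at 1W, -0.24 and -0.42 at 2W, then -0.39 and -0.04 at 3W. Mb stood at 82.1% of VC at MXD 1W, where the other 9 enzymes stood between 47.4% and 61.1%, and it was the 1 enzyme of 10 with a lower mean at MXD 3W than at MXD 1W. At MXD 2W, in contrast, Mb stood at 36.7% of VC, near the median of 37.2%.

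The SD over the 10 enzymes, each taken as the mean of its 2 arrays, was 0.22 at MXD 1W, 0.20 at MXD 2W and 0.10 at MXD 3W on the log2 scale, and the median SD over the 2 arrays of an enzyme was 0.17, 0.23 and 0.17. Of the MXD weeks, the enzymes lay closest together at 3W. At N-CE 1W the SD over the enzymes was 0.26 and the median SD over arrays 0.16, and the range ran from -0.42 in Ampd1 to 0.49 in Fbp2. In several enzymes the order of the 2 arrays recurred across comparisons. In Eno3 the array with the treated pool in Cy5 had the lower value in 6 of 6 comparisons, whereas in Pygm, Pfkm and Ckm it had the higher value in 5 of 6.

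The promoters of the enzymes were examined because the members moved together at MXD 2W. RefSeq promoters (GRCm38.p6) matched 9 of the 10 genes with 14 start sites, and none was listed for Ampd1. The 250 bases before each start were searched for the E-box, CANNTG, which reads alike on both strands, and for the MEF2 motif on both strands. An E-box was in 13 of 14 windows, beside 66.2% of 32851 promoters. All 9 genes had at least 1, but Pfkm and Mb have several windows each, and the 66.2% is per promoter and not per gene. The MEF2 motif was in 1 of 14 windows, that of Pgam2, beside 2.92% of promoters. Windows of Mb and of Pfkm overlap in part and are not independent. Of the motifs, 2 E-boxes of Phkg1 overlapped each other, and none overlapped the MEF2 motif. The windows of Pgam2 (chr11:5803797-5804046, minus strand), Pygm (chr19:6384158-6384407, plus strand) and Ckm (chr7:19410844-19411093, plus strand) are shown for 1 enzyme each of glycolysis, glycogen breakdown and phosphocreatine, with the motifs in capitals.
Pgam2: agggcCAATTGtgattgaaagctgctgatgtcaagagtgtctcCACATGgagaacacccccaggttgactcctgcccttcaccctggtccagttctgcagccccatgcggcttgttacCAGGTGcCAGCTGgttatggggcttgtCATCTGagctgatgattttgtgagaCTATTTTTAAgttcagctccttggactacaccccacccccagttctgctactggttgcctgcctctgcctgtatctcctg
Pygm: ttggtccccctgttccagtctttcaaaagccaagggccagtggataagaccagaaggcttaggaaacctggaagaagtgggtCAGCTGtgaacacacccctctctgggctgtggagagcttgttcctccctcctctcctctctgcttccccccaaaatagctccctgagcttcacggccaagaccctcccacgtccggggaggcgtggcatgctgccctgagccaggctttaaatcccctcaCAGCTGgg
Ckm: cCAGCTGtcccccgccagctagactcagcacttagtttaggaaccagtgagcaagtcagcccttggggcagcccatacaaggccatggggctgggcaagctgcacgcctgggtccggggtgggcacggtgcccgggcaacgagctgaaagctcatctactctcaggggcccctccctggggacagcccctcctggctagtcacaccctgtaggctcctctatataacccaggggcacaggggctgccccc
Pgam2 held 5 E-boxes and the MEF2 motif, whose first base lies 80 bases before the start, Pygm held 2 E-boxes and Ckm held 1. A match describes letters in the window and is not a site of binding.

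With N-CE the mean of each enzyme lay nearer to VC than with MXD at 1W and at 2W, in 10 of 10 enzymes. At 3W Pygm, Ckmt2, Phkg1 and Fbp2 lay farther from VC with N-CE than with MXD. The median log2 fold in weeks 1 to 3 was -0.13, -0.35 and -0.32, or 91.7%, 78.4% and 80.0% of VC. Called lower were 0 of 10 at 1W beside 1.49% of all probes, 0 of 10 at 2W beside 0.0511% and 1 of 10 at 3W, Ckmt2, beside 0.139%. Called higher were 0 of 10 in each week, beside 0.292%, 0.0682% and 0.151% of all probes. Both arrays were below 0 in 5, 7 and 10 of the 10 enzymes at 1W, 2W and 3W, as they were in 27.3%, 20% and 30.6% of the probes well above background. The arrays had opposite signs in Pygm, Pfkm and Ckm at 1W, and in Pygm, Ckm and Ampd1 at 2W. Without the P criterion, 1 of 10 passed the lower fold at 1W (Ampd1, beside 9.4% of all probes), 3 of 10 at 2W (Pygm, Ckm and Fbp2, beside 5.59%) and 2 of 10 at 3W (Ckmt2 and Fbp2, beside 5.87%). The 2W passes of Pygm and Ckm rest on 1 array, since the other array of each was at 0.07 and 0.01.

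The treatments were set against each other within a week by subtracting the N-CE log2 fold from the MXD log2 fold in the same dye orientation. Both values of such a difference share the VC pool, the slide and the dye of the treated pool. At 1W the difference ran from -1.38 in Fbp2 to -0.32 in Ampd1 with a median of -0.73, and at 2W from -1.27 in Eno3 to -0.74 in Ampd1 with a median of -1.01. With normexp and loess the 1W value of Fbp2 was -1.05, and Pygm was then lowest at -1.06. The difference was below 0 in both orientations in 10 of 10 enzymes at 1W and at 2W, as it was in 47.5% and 37.9% of the probes well above background in all groups. At 3W it ran from -0.23 in Mb to 0.19 in Fbp2 with a median of -0.08, and 6 of 10 enzymes were below 0 in both orientations beside 31.2% of probes. A mean difference below the lower fold of 0.75 was found in 9, 10 and 0 of the 10 enzymes at 1W, 2W and 3W, beside 12.5%, 15.7% and 2.52% of probes. The enzyme outside it at 1W was Ampd1.

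**Figure D2:**
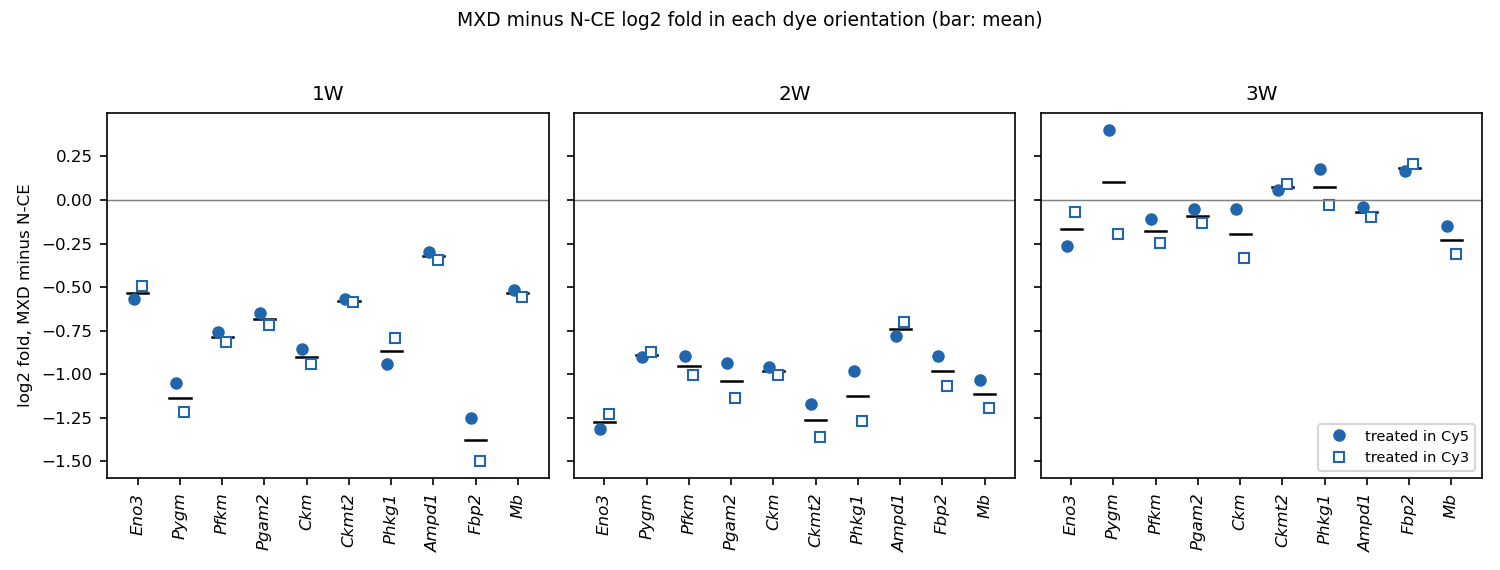
MXD minus N-CE log2 fold of each enzyme by week, with the treated pools in Cy5 as filled circles, in Cy3 as open squares and the mean as a bar. All points lie below 0 at 1W and 2W, and the 3W means lie between -0.23 and 0.19.

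The median SD over the orientations was 0.05, 0.09 and 0.10 for these differences from the first week to the last, below that of MXD alone at 0.17, 0.23 and 0.17 and of N-CE alone at 0.16, 0.21 and 0.13. Pygm at 2W had an SD of 0.76 in the MXD comparison and 0.78 in the N-CE comparison, but its difference was -0.90 and -0.87 in the 2 orientations, with an SD of 0.02. Ckm at 2W behaved alike, with SDs of 0.72 and 0.69 for the single comparisons and differences of -0.96 and -1.005. This did not hold for both at 3W. The Pygm difference was then 0.40 and -0.19 with an SD of 0.42, wider than the 0.28 with MXD and the 0.14 with N-CE, and the SD of the Ckm difference was 0.20 beside 0.07 and 0.12. At 3W Fbp2 and Ckmt2 were higher with MXD than with N-CE in both orientations, by 0.19 ± 0.03 and 0.07 ± 0.02 (SD, n = 2 orientations).

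The level of each enzyme in each pool was taken as the log2 signal per channel after background correction, loess and quantile scaling of the average signal over all arrays. Levels of different probes cannot be compared, so each enzyme is followed within its own probe. MXD 2W was the lowest of the 9 pools in 10 of 10 enzymes. In Ckmt2 the level was 14.25 ± 0.09 at VC 1W, 14.03 ± 0.12 at VC 2W and 13.86 ± 0.12 at VC 3W (SD, n = 4 channels). The MXD pools of the same weeks stood at 13.46 ± 0.05, 12.57 ± 0.16 and 13.29 ± 0.12 (SD, n = 2 channels), and the N-CE pools at 13.92 ± 0.08, 13.64 ± 0.04 and 13.28 ± 0.03. At 3W the levels of both treated pools overlapped in Ckmt2, and both lay below every VC channel of that week. In Mb the N-CE 1W pool was highest, at 15.31 ± 0.04 (SD, n = 2 channels), above the VC 1W pool at 15.07 ± 0.05 (SD, n = 4 channels), and the MXD pools stood at 14.85 ± 0.05 at 1W, 13.68 ± 0.37 at 2W and 14.52 ± 0.03 at 3W. From 2W to 3W the MXD level was higher in 10 of 10 enzymes, by 0.26 in Phkg1 to 0.84 in Mb with a median of 0.59.

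**Figure D3:**
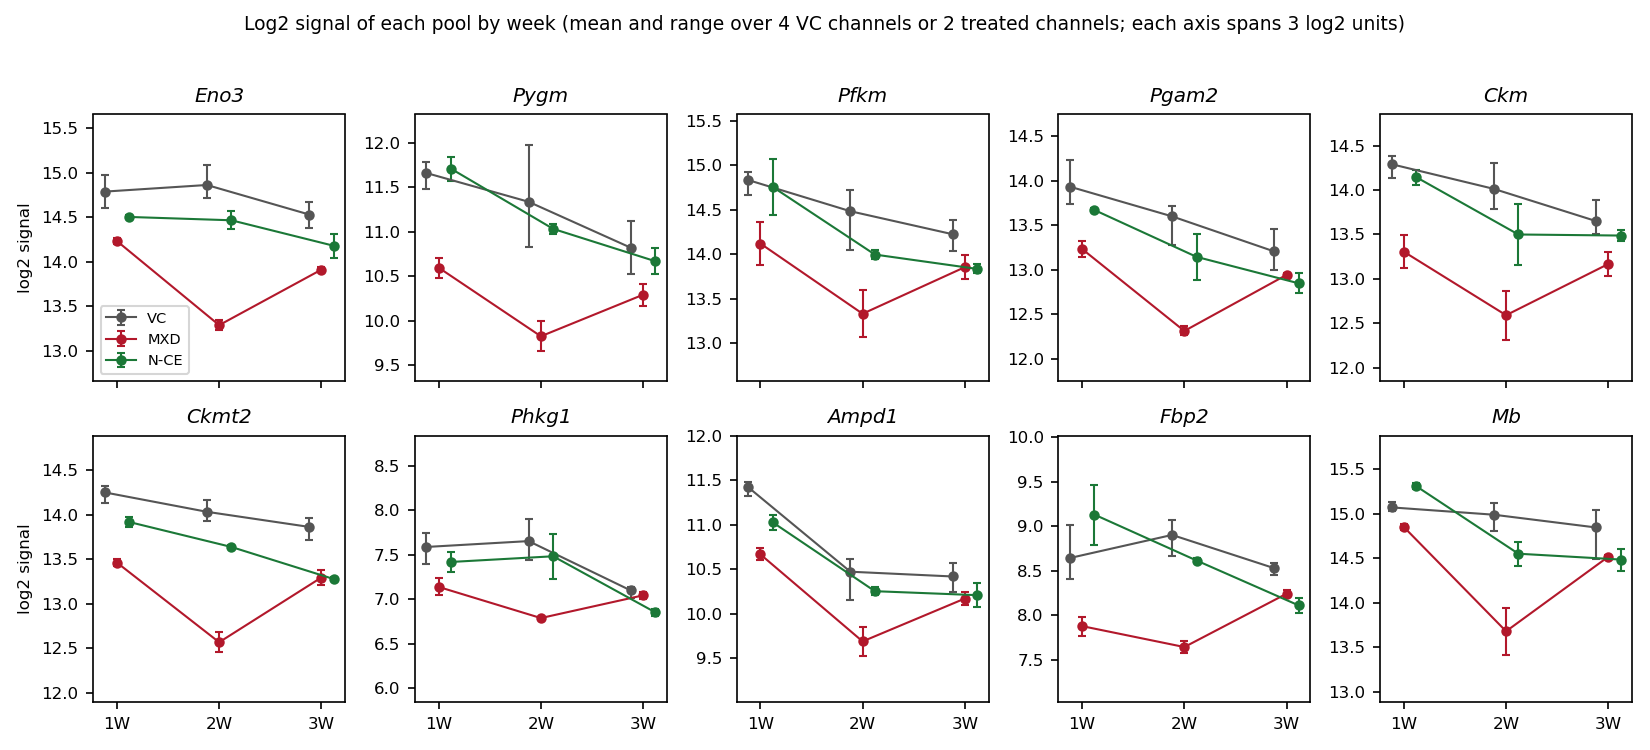
Log2 signal of each enzyme in the VC, MXD and N-CE pools at 1W, 2W and 3W, with the mean as a point and the range over 4 VC channels or 2 treated channels as a bar. MXD 2W is the lowest point in all 10 panels, and the VC 3W point lies below the VC 1W point in all 10.

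The VC pools themselves were not level over the weeks. VC 3W was below VC 1W in 10 of 10 enzymes, by a median of -0.55 on the log2 scale and from -1.004 in Ampd1 to -0.11 in Fbp2. With processed signals divided by the median of the array and channel, the median was -0.68. VC 2W was below VC 1W in 7 of 10 enzymes, the exceptions being Eno3, Phkg1 and Fbp2. In Ampd1 the VC level went from 11.42 ± 0.07 at 1W to 10.47 ± 0.21 at 2W and 10.42 ± 0.15 at 3W (SD, n = 4 channels), so the step between 1W and 2W exceeded the spread between channels and the neighbours 2W and 3W did not differ beyond it. Each week is 1 VC pool on 1 slide, so mice, age and slide cannot be told apart in these steps. The same VC pool was measured on the MXD arrays and on the N-CE arrays of its week, and the level on the MXD arrays minus that on the N-CE arrays ran from -0.49 to 0.28 over the 10 enzymes and 3 weeks. Over the enzymes the weekly medians of this repeat difference were 0.09, 0.13 and -0.0077.

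Most of the enzymes have isoforms used outside muscle, which serve as a comparison within the same pathway. At MXD 2W Eno3 was at -1.62 and Eno1, the ubiquitous enolase, at 0.14, Pygm at -1.37 and the liver phosphorylase Pygl at -0.11, Pfkm at -1.31 and the liver phosphofructokinase Pfkl at 0.12. Pgam2 was at -1.40 and Pgam1 at 0.32, Ckm at -1.46 and the brain creatine kinase Ckb at -0.07, Ckmt2 at -1.56 and the ubiquitous mitochondrial form Ckmt1 at 0.14. The muscle form was the lower one of each pair. Phkg1 was at -1.41 and Phkg2 at 0.57, and Ampd1 at -0.88 beside -0.05 in Ampd2 and 0.28 in Ampd3. Over 13 such pairs, in which Eno3, Pygm, Pfkm and Ampd1 enter with 2 partners each, the muscle form was below its partner on both arrays in 13 of 13 pairs at MXD 1W, 2W and 3W, by medians of -0.78, -1.43 and -0.38 on the log2 scale. With N-CE it was so in 7, 8 and 11 of the 13 pairs at 1W, 2W and 3W.

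Of the 13 non-muscle isoforms, each read by its brightest probe, 12 were called in none of the 6 comparisons. The exception was Fbp1, the liver-type fructose-bisphosphatase, which was called higher at MXD 1W (0.65) and MXD 2W (1.25) and lower at N-CE 1W (-2.79), where Fbp2 was at 0.49. Of all probes, 0.685% and 4.04% were called higher at MXD 1W and 2W, and 1.49% lower at N-CE 1W. Over all 13 the median log2 fold was -0.15 at MXD 1W, 0.14 at MXD 2W and -0.05 at MXD 3W, and 0.01, -0.02 and 0.05 with N-CE.

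**Figure D4:**
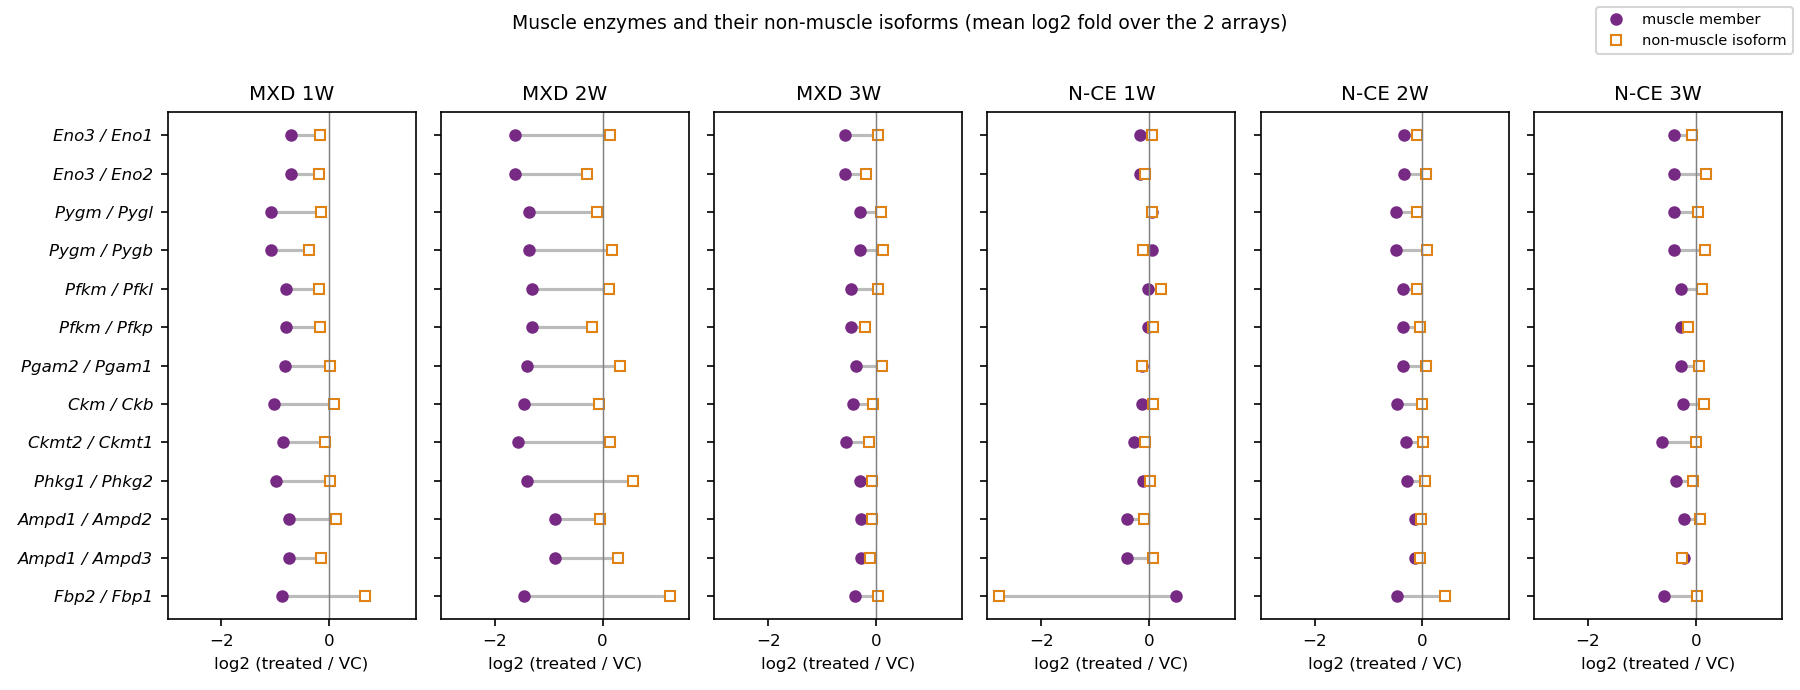
Mean log2 fold over the 2 arrays of each muscle enzyme (filled circle) and its non-muscle isoform (open square), joined by a line, in the 6 comparisons. At MXD 2W the muscle forms lie between -1.62 and -0.88 and the partners between -0.29 and 1.25, and at N-CE 1W Fbp1 lies apart at -2.79.

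The rest of the pathway was described with lists of genes that are not members. Of 24 other glycolysis and glycogen genes, 14 were called lower at MXD 2W and 0 higher, beside 5.82% and 4.04% of all probes. Below 0 were 23 of 24, beside 10964 of 24331 probes well above background in both groups, and the median log2 fold of the list was -0.82. The lowest were Ppp1r3a, the glycogen-targeting subunit of muscle protein phosphatase, at -1.74, Gyg, the primer of glycogen synthesis, at -1.36, Slc2a4, the insulin-regulated glucose transporter, at -1.36, and Gbe1, the glycogen branching enzyme, at -1.24. The genes of the list that were not called included Gapdh at -0.73, Pkm at -0.53 and Hk1, the hexokinase of most tissues, at -0.18, which are named here after their values were seen. At MXD 1W 5 of the 24 were called lower, beside 0.765% of all probes, with a median of -0.42. At MXD 3W 0 of 24 were, beside 0.161%, with a median of -0.27. With N-CE 0 were called in any week, and the medians were -0.03, -0.25 and -0.21. Of all probes, 1.49%, 0.0511% and 0.139% were called lower in these weeks, and 0.292%, 0.0682% and 0.151% higher.

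Of 12 other genes of muscle energy supply, 9 were called lower at MXD 2W, beside 5.82% of all probes, with a median of -1.17. The lowest were Adssl1, the muscle adenylosuccinate synthase that works with Ampd1 in the purine nucleotide cycle, at -1.75, and the heart and muscle cytochrome oxidase subunits Cox8b at -1.49, Cox7a1 at -1.46 and Cox6a2 at -1.43. Ppargc1a, a coactivator that promotes mitochondrial biogenesis, was at -0.03 in both MXD 1W and MXD 2W. With N-CE 0 of the list were called in any week, beside the shares of all probes given above.

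The fast and general skeletal muscle markers had medians near those of the enzymes in the same comparisons. They were -0.66 at MXD 1W, -1.46 at MXD 2W and -0.45 at MXD 3W, beside -0.84, -1.43 and -0.41 for the enzymes, and -0.15, -0.43 and -0.36 with N-CE, beside -0.13, -0.35 and -0.32. Called lower were 8 of 14 measured markers at MXD 1W, where Myh2 was called higher, 15 of 15 at MXD 2W and 4 of 15 at MXD 3W. Of all probes, 0.765%, 5.82% and 0.161% were called lower in these weeks. The slow muscle markers did not share these medians. Over the 7, 5 and 5 measured with MXD they were -0.0014, -0.31 and -0.0078, and over the 4, 5 and 5 with N-CE -0.21, 0.13 and 0.07. Still, 2 of the 7 slow markers measured at MXD 1W were called lower, and 1 of the 4 at N-CE 1W, beside 0.765% and 1.49% of all probes. At MXD 2W 2 slow markers were called lower and 1 higher, beside 5.82% and 4.04% of all probes. The summed signal of 14 of the fast and general markers over the channels of a pool was 348818 to 425973 at VC 2W and 134111 to 186625 at MXD 2W. The summed signal of the 10 enzymes was 120246 to 144564 and 47373 to 59222. The summed signal of the 4 slow markers well above background in all comparisons was 16503 to 23300 at VC 2W and 7809 to 9342 at MXD 2W. In each of these sums the channels did not overlap between the pools. Markers of other skin compartments moved in the same comparison too. At MXD 2W the median log2 fold was 1.28 over 8 hair follicle markers, all called higher, and -0.79 over 5 white adipocyte markers, 3 called lower. It was 0.26 over 6 measured smooth muscle markers, 2 called lower, and -0.61 over 6 epidermis markers, 3 called lower and 1 higher. Over 4 endothelial markers it was -0.39, 1 called lower, and over 3 measured brown adipocyte markers -0.36, 1 called lower. Over 6 leukocyte markers it was -0.21, 1 called lower and 1 higher, and over 2 measured cardiac markers 0.13, 0 called. Of all probes, 5.82% were called lower and 4.04% higher. Whether the makeup of the skin takes part in the enzyme values was not tested. At N-CE 1W the hair follicle markers had a median of -2.72, while the median of the enzymes was -0.13. Of these markers 7 of 7 measured were called lower, beside 1.49% of all probes.

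**Figure D5:**
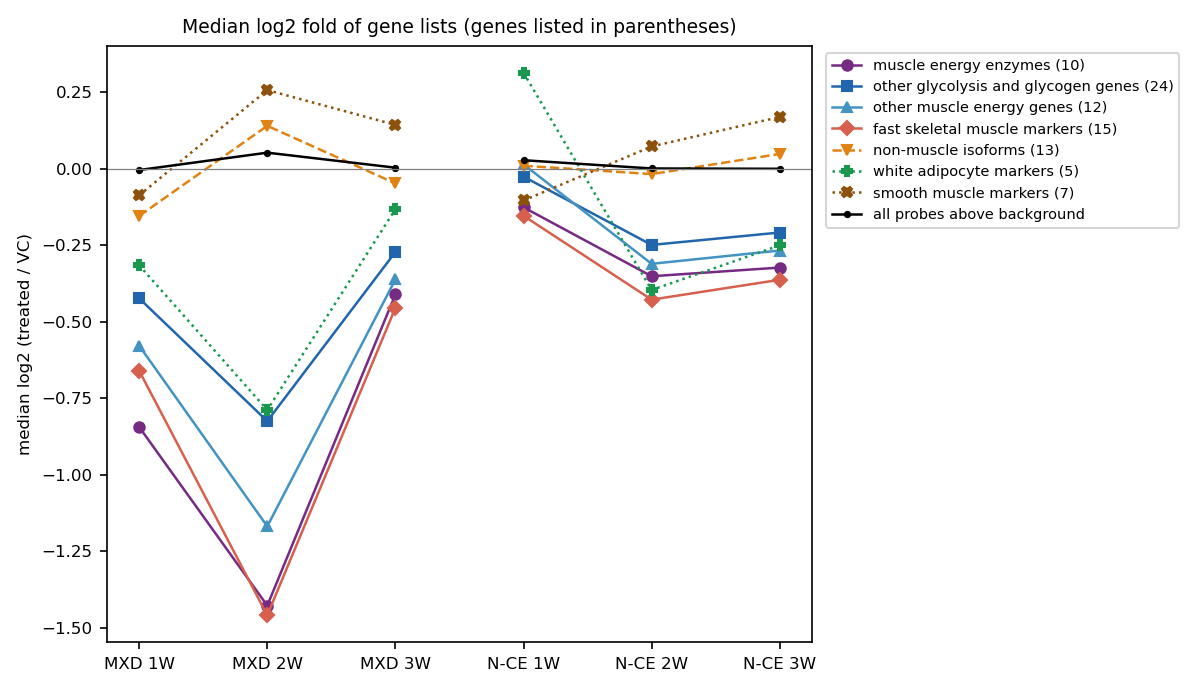
Median log2 fold of treated over VC in the 6 comparisons for the 10 enzymes, other gene lists and all probes well above background, each list over its genes measured in both groups. The enzymes and the fast skeletal muscle markers lie at -1.43 and -1.46 at MXD 2W, while the non-muscle isoforms lie at 0.14 and all probes at 0.053.

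The genes whose 6 log2 folds lay nearest to the median profile of the enzymes were picked from 13999 named genes with a probe well above background in all comparisons, by the root mean square difference over the 6 values. They were Rxrg at 0.070, Jph2 at 0.073, Dhrs7c at 0.080, St8sia5 at 0.083, 1 probe of Ttn at 0.084, Ryr1 at 0.085, Cox7a1 at 0.087 and Ank1 at 0.088, beside a median of 0.73 over all genes compared. Rxrg, for example, had log2 folds of -0.71, -1.41 and -0.31 with MXD at 1W, 2W and 3W and -0.13, -0.36 and -0.29 with N-CE. Of the enzymes, Pgam2 lay nearest to their own median, at 0.034, and Ampd1, Mb and Fbp2 farthest, at 0.28 each. This is a description over 6 comparisons that share VC pools.

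To ask whether a treatment held over time, limma's moderated test was applied to the 3 weekly means of each probe, with the weeks in place of replicates. The mean log2 fold with MXD ran from -0.99 ± 0.26 (SE, n = 3 weeks) in Ckmt2 to -0.63 ± 0.16 in Ampd1, and with N-CE from -0.40 ± 0.10 in Ckmt2 to -0.10 ± 0.15 in Mb. With Benjamini-Hochberg adjustment 0 of 41068 probes passed 0.05 for MXD, and all 10 enzymes had an adjusted p of 0.626 by limma. At an unadjusted p under 0.05 there were 3098 probes, or 7.54%, with 7 of the 10 enzymes. For N-CE 0 of 40895 probes passed and the adjusted p of the 10 enzymes by limma was 1, with 1490 probes or 3.64% and 5 of the 10 at an unadjusted p under 0.05. For MXD minus N-CE 0 of 40820 probes passed, with an adjusted p of 0.75 by limma for all 10, and 2021 probes or 4.95% and 1 of the 10, Ckm, at an unadjusted p under 0.05. The mean difference of Ckm was -0.69 ± 0.21 (SE, n = 3 weeks), and all 10 enzymes were below 0. Leaving out 1W, 2W or 3W in turn, the enzymes at an unadjusted p under 0.05 numbered 0, 3 and 7 for MXD, 8, 0 and 1 for N-CE, and 0, 0 and 6 for the difference. Over all probes the same fits gave 1800 of 41084, 3281 of 41086 and 2942 of 41132 for MXD. For N-CE they gave 4944 of 40916, 1564 of 40947 and 1403 of 41060. For the difference they gave 1518 of 40847, 1330 of 40885 and 4983 of 41028. The number of enzymes was 10 for MXD and 0 for N-CE with slide as a random block, beside 4202 and 1002 of 40820 probes. With normexp and loess it was 10 for MXD, 8 for N-CE and 9 for the difference. Over all probes that setting gave 3495 of 41068, 811 of 40895 and 2643 of 40820. Among the probes well above background 10 enzymes passed for MXD and 6 for N-CE, beside 2430 of 22583 and 291 of 21791 probes. By this test the treatments were not shown to differ over the weeks, but it could not decide whether they do. It had 3 weekly values per probe, a change between weeks counts as its error, and 0 probes passed in any fit.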

How the data were processed

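The authors scanned 2-colour Agilent arrays and deposited the output of Agilent Feature Extraction, version 12.0.3.1 per the file headers and 11.0.1.1 per the processing notes in the labels. Used here are 3 kinds of deposited values, namely the log10 Cy5 to Cy3 ratio that the authors corrected for background and normalized by LOWESS, the p-value of each spot from the authors' error model, and the intensity of each channel, raw and processed. The deposited series matrix holds the log10 ratio of the processed intensities. Probe positions are on mm9.

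Control and outlier-marked spots were left out, ratios were signed as treated over VC by the dyes in the labels, and their log2 was averaged over the dye swap. For a listed gene with several probes the brightest one stood. Named were all 10 enzymes, their isoform partners, up to 4 called genes of a list and the 8 nearest genes, and further genes were named after their values were seen. Levels came from normexp (offset 50), loess and Aquantile in limma 3.58.1, and the tests over weeks from limma with Benjamini-Hochberg adjustment. Other steps used Python 3.11.15, numpy 2.4.6 and pandas 2.3.3. The calls and the limma fit were also run on simulated data. For the calls the simulated noise was fixed, unlike the varying spread between these arrays. For limma only the estimated shift had to be met, not the number of probes recovered. The members and lists were chosen with earlier results of these data known.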

Additional observations from a re-analysis of the deposited data

Results flagged for a closer look

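In 2 of the 10 enzymes, Fbp2 and Mb, all arrays of 1 comparison lay on the opposite side of 0 from all arrays of another. Both were above 0 at N-CE 1W and below 0 elsewhere. For Fbp2 the MXD minus N-CE difference at 1W was -1.38 on the log2 scale, and N-CE was lower by -0.97 at 2W and by -1.07 at 3W than at 1W. For Mb the MXD minus N-CE difference at 1W was -0.54. Its N-CE log2 fold at 2W and at 3W minus that at 1W was -0.58 and -0.47, and its N-CE level was 15.31, 14.55 and 14.49. Each group is 1 pool, so these differences were not tested, and neither gene was called at N-CE 1W.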

How the results depend on the processing

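The 9 of 10 and 10 of 10 enzymes called lower at MXD 1W and 2W stayed at these counts under all alternatives run. Those that could lower a count were symmetric folds, normexp with loess and each array alone. The fold alone drops a criterion and can only add calls. Each enzyme has 1 probe, well above background on all arrays, so the mean over probes and the background filter could not change a count. Keeping outlier-marked spots and taking the series matrix gave the same values. Counts of enzymes called lower were 0, 0, 0 and 1 at MXD 3W and at N-CE 1W, 2W and 3W. By the fold alone they became 5, 1, 3 and 2. The matrix and normexp with loess were also read by the fold alone, without the P criterion. The matrix gave the same 5, 1, 3 and 2. Normexp with loess gave 5, 1, 2 and 2, since Fbp2 at N-CE 2W no longer passed, at -0.40. Without 1 of the 2 arrays the count lay between 0 and 3 at MXD 3W, between 2 and 3 at N-CE 2W and between 1 and 2 at N-CE 3W. The median log2 fold at MXD 1W was -0.76 with normexp and loess in place of -0.84. With 1 array left out the medians ran from -0.84 to -0.89 at MXD 1W, from -1.31 to -1.53 at MXD 2W, from -0.38 to -0.48 at MXD 3W, from -0.14 to -0.020 at N-CE 1W, from -0.36 to -0.29 at N-CE 2W and from -0.46 to -0.22 at N-CE 3W. The limma counts over weeks were 0 in each alternative, including leave-one-out over weeks and a random block for slide. The enzymes at an unadjusted p under 0.05 still ranged from 0 to 10 for MXD, 0 to 8 for N-CE and 0 to 9 for the difference. Over all probes the numbers at that limit ranged from 1800 to 4202, from 291 to 4944 and from 1330 to 4983. Pairing by mouse was not possible because each group is 1 pool, and the labels give every sample the same replicate number. MXD minus N-CE was paired by week, and without that pairing 0 probes were called too. The calls rest on spot P values that describe measurement and not mice.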
